A study of Oryza sativa Japonica Group with 30 samples.

Results

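The 6 genes described here have a known or presumed part at the end of the route that brings glutelins, the main storage proteins of rice grain, into the vacuole. They are 4 vacuolar processing enzyme genes (VPE1, VPE2, VPE3 and VPE4), the small GTPase gene RAB5A and the sorting gene GPA3. They were chosen by locus identifier, for their known or presumed part in glutelin maturation and vacuolar sorting, from 55801 listed genes. Earlier results of these data were known when the choice was made. RNA had been sequenced from whole unripe caryopses of rice (Oryza sativa Japonica Group) collected 7 days after pollination from plants in paddy fields. The 30 samples formed 10 groups of 3. Under natural heat stress, with about 6 h a day above 35 °C and peaks near 40 °C for almost all of growth, these were OX-ONAC127H and OX-ONAC129H (ONAC127 or ONAC129 overexpressed), CR-ONAC127H and CR-ONAC129H (ONAC127 or ONAC129 mutant) and the wild type ZH11H. Under normal cultivation, where 35 °C was passed on 3 days and the daytime mean was near 30 °C, they were OX-ONAC127N, OX-ONAC129N, CR-ONAC127N, CR-ONAC129N and the wild type ZH11N. The labels give no promoter for the overexpressing lines, no allele for the mutants, and do not state whether the 3 RNA samples in each group were taken from different plants.

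Glutelins are made as precursors in the endoplasmic reticulum, pass through the Golgi apparatus and travel in dense vesicles to the protein storage vacuole. There a vacuolar processing enzyme, a cysteine protease that cuts after asparagine, splits each precursor into an acidic and a basic subunit. RAB5A, switched on by its exchange factor VPS9A, and GPA3, a kelch-repeat protein that binds this pair, direct the dense vesicles to the vacuole. Rice mutants that lack one of these functions accumulate glutelin precursors, and in the sorting mutants part of the glutelin leaves the cell instead of reaching the vacuole. In rice the abbreviation VPE is also in use for vacuolar phosphate efflux transporters, which are different genes and are not meant here.

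Each gene had 1 value, the mean over samples of read counts divided by size factors, called a normalised count below. All 8 deposited tables, each named for 1 line against the wild type under 1 condition, held the same values. The design sets each line against ZH11 under each condition, hot against normal growth within a genotype, and 1 of these effects against the other. These comparisons are not analysed here, since a pooled mean has no sample, no SD and no test, and nothing below bears on an effect of heat, ONAC127 or ONAC129. The values are also not divided by transcript length. They order the genes by the reads assigned to them and not by their number of transcripts. In whole caryopses, fewer cells of a type and less RNA per cell cannot be told apart.

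The counting error of a pooled mean could be bounded. The lowest values of the profile fell on 30 steps, as many as there were samples. A step is what a single read in a single library adds to the mean, and the steps ran from 0.0203 to 0.0605 normalised counts. They correspond to size factors (relative depths) from 0.551 to 1.64. The highest step sets an upper limit on the counting SE of any pooled mean, and 1.96 times that limit is given after each ± sign below. This 95% interval covers counting error alone. It holds neither the spread between plants nor that between genotypes and conditions, and reads that copy 1 molecule would widen it.

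All 6 genes were read, and all lay above the median of the genes above 0. Their median was 258 normalised counts, beside a median of 15.9 over the 40831 genes above 0 and of 1.23 over all 55801 genes. Many of those genes had almost no reads. Over the 22056 genes of at least 10 normalised counts the median was 119, close to the 124 of GPA3. None of the 6 reached 1000 normalised counts, a mark passed by 5.17% of the genes above 0. At a mark of 500, passed by 10.1% of those genes, VPE1 and VPE3 counted and the other 4 did not. Nothing about the 6 genes is read from counts this small. The 6 genes lie on 6 different chromosomes, as read from their identifiers, and summed to 0.0185% of all normalised counts.

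**Figure D1:**
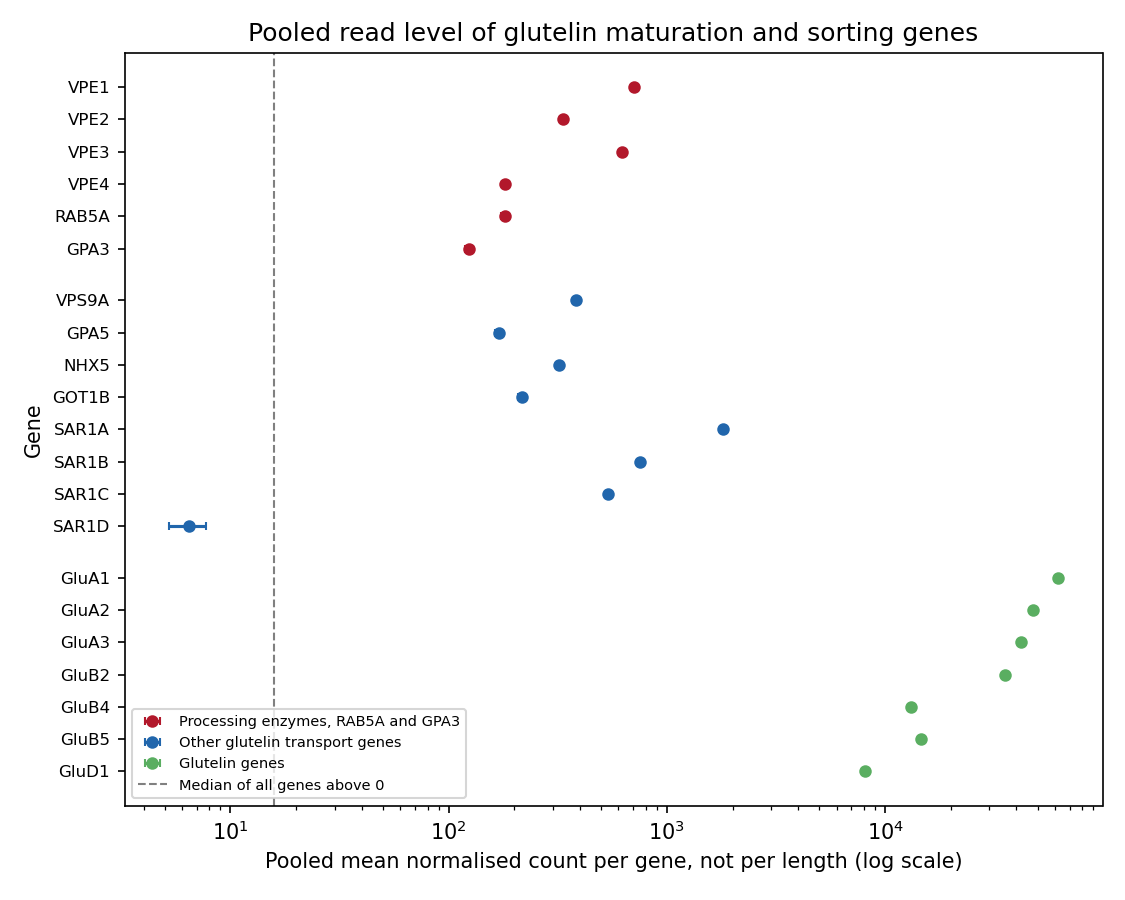
The x axis gives the pooled mean normalised count per gene on a log scale, not divided by length, and the rows are genes. Points are pooled means over all samples, bars are the 95% upper limit on counting error (mostly smaller than the point), and the dashed line is the median of all genes above 0, 15.9. The 6 genes lie between 124 and 708 normalised counts, the other transport genes between 6.46 and 1811, and the 7 glutelin genes, a list trimmed after its values were seen, between 8056 and 61910 (10 loci as first written: 1083 to 66984).

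VPE1 (LOC_Os04g45470, chromosome 4), also named GLUP3, is the enzyme known to cut proglutelin in rice endosperm. It had 708 ± 12.8 normalised counts, higher than 92.6% of the genes above 0, and ranked 3012 of all genes. It had the most reads of the 6 genes. The reference table lists VPE1 and Glup3 as names of a single gene on the same chromosome. The places along it were less close. The locus lay past a fraction of 0.746 of the listed loci, and the named gene past 0.653 of the reference genes. This difference, 0.0935, was the largest among the 3 members whose symbols the reference holds.

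VPE3 (LOC_Os02g43010, chromosome 2) encodes a family member that has been studied in rice for salt stress and cell death. The pairing of VPE2, VPE3 and VPE4 with their loci rests on general knowledge of rice genes, since the reference table does not hold these names. VPE3 had 622 ± 12.0 normalised counts, higher than 91.7% of the genes above 0, and ranked 3400. VPE1 exceeded it by 86.3 ± 17.6 normalised counts, more than counting error alone. Without a value per sample it cannot be said whether this order held in each genotype or condition, and without lengths it is not an order of transcript levels.

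VPE2 (LOC_Os01g37910, chromosome 1) had 334 ± 8.81 normalised counts, higher than 86.0% of the genes above 0, and ranked 5736. VPE4 (LOC_Os05g51570, chromosome 5) had 182 ± 6.50 normalised counts, higher than 78.6%, and ranked 8756. Both encode further enzymes of the family, and VPE4 had the fewest reads of the 4. None of the 4 was near 0, so that reads of all 4 enzyme genes were present in the pooled caryopses. Further genes of the family were not searched for.

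The 4 enzyme genes together had 1846 normalised counts. Of these, VPE1 held 38.4%, VPE3 held 33.7%, VPE2 held 18.1% and VPE4 held 9.86%. The gene known for glutelin cleavage therefore held the largest share of the reads of these 4 genes, but less than the other 3 together. The shares are of reads assigned to each gene, without regard to length. The 4 genes are related in sequence, and how the authors' counting treated reads that fit more than 1 of them is not given in the sources used here.

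RAB5A (LOC_Os12g43550, chromosome 12), also named GLUP4, encodes the small GTPase of the late endosomal route. It had 181 ± 6.48 normalised counts, higher than 78.5% of the genes above 0, and ranked 8794. VPE4 exceeded it by 1.35 ± 9.18 normalised counts, so these neighbours in the order did not differ beyond counting error. GPA3 (LOC_Os03g61950, chromosome 3), the kelch-repeat partner of RAB5A and VPS9A, had 124 ± 5.37 normalised counts, higher than 73.6%, and ranked 10783. It had the fewest reads of the 6 genes, 56.4 ± 8.42 normalised counts fewer than RAB5A. Both names were found in the reference table on the chromosome of their locus.

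**Figure D2:**
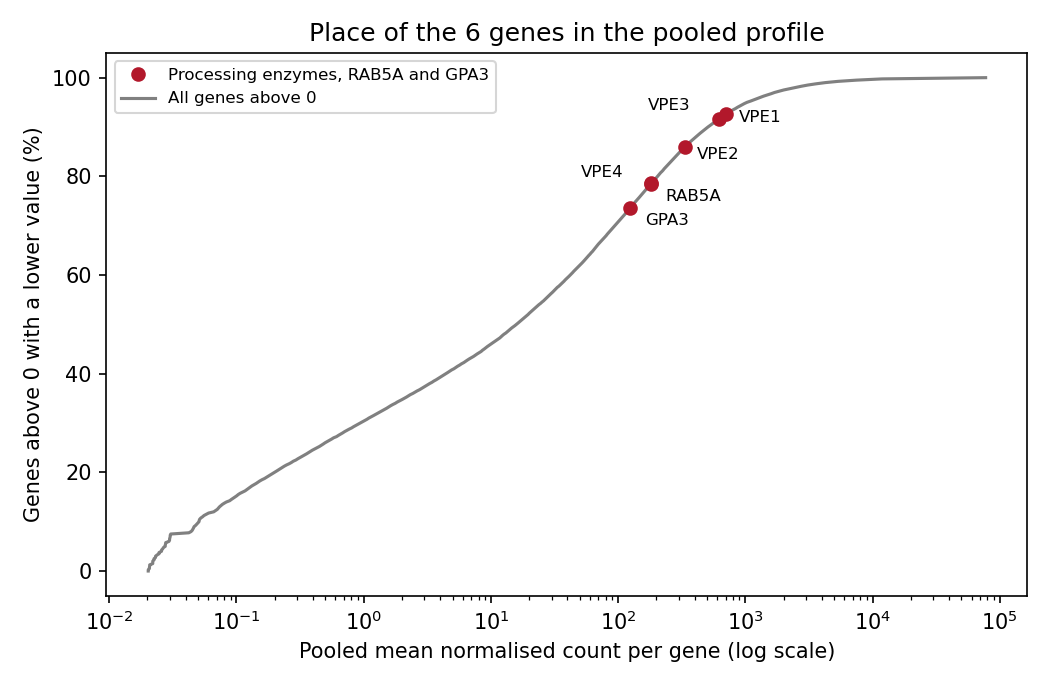
The x axis gives the pooled mean normalised count per gene on a log scale and the y axis the percentage of genes above 0 with a lower value. The red points are the 6 genes and the grey line is the distribution of all 40831 genes above 0. The 6 genes stand between 73.6% for GPA3 and 92.6% for VPE1, with VPE4 and RAB5A almost on top of each other.

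Other genes of the glutelin transport route were listed beside them, of which the reference table holds the name of VPS9A alone. VPS9A (LOC_Os03g15650), the exchange factor of RAB5A, had 385 ± 9.45 normalised counts. GPA5 (LOC_Os06g43560), an effector of RAB5A that tethers dense vesicles, had 170 ± 6.29. NHX5 (LOC_Os09g11450), an endosomal sodium and proton antiporter, had 322 ± 8.65. The 4 post-Golgi genes of the RAB5A module (RAB5A, GPA3, VPS9A and GPA5) lay between 124 and 385 normalised counts. This range was not particular to them, since it also held NHX5, VPE2 and VPE4.

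Genes of the earlier step, the budding of vesicles from the endoplasmic reticulum, covered a wider range. GOT1B (LOC_Os03g11100), which helps to form these vesicles and is also named GLUP2, had 216 ± 7.08 normalised counts. Of the 4 genes for the small GTPase Sar1, which starts the vesicle coat, SAR1A (LOC_Os01g15010) had 1811 ± 20.5 normalised counts. SAR1B (LOC_Os12g37360) had 751 ± 13.2 and SAR1C (LOC_Os01g23620) had 536 ± 11.2. SAR1D (LOC_Os06g12090) had 6.46 ± 1.23 and was, alone among these 8 transport genes, below the median of the genes above 0. The median of the 8 was 353 normalised counts, beside 258 for the 6 genes described here and 15.9 over the genes above 0. Of the 8, SAR1A alone reached 1000 normalised counts, beside 5.17% of the genes above 0, and nothing about either list is read from counts this small.

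The cargo genes had more reads in the same pool. The 6 genes had 124 to 708 normalised counts, whereas the 7 glutelin genes whose names the reference table holds had 8056 to 61910. Among them GluA1 (LOC_Os01g55690) had 61910 normalised counts, GluA2 (LOC_Os10g26060) had 47812 and GluA3 (LOC_Os03g31360) had 42080. GluB2 (LOC_Os02g15150) had 35496, GluB5 (LOC_Os02g16820) had 14680, GluB4 (LOC_Os02g16830) had 13081 and GluD1 (LOC_Os02g15090) had 8056. This list was trimmed after its values were seen. The 10 loci first written down ran from 1083 to 66984 normalised counts, so that the lowest of them lay below SAR1A and nearer to VPE1. Close copies among the GluB genes may share reads, so single GluB values are uncertain.

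Whether strand was used in counting is not given in the sources used here, so reads of an overlapping or antisense gene next to a member cannot be told apart from its own. The 2 listed loci on each side of every gene were read as well, in the order of their numbers. That order gives neither overlap nor strand, so these values cannot tell whether reads were shared. Of these 24 loci, 8 had more reads than the gene beside them, 8 lay below 1 normalised count and 4 were listed at 0. Among all 55801 listed genes, 14970 were at 0 and the median was 1.23 normalised counts. Nothing is read from flank counts this small. At 0 no library held a read, which allows up to 0.181 normalised counts (3 reads in the shallowest library, counting error only).

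RAB5A had more reads than each of the 4 loci around it. LOC_Os12g43530 and LOC_Os12g43540 before it and LOC_Os12g43564, the second locus after it, were listed at 0. LOC_Os12g43560, directly after it, had 96.3 normalised counts, below the 181 of RAB5A. VPE2 had 0.0450 and 0.0514 normalised counts in the loci before it, LOC_Os01g37890 and LOC_Os01g37900. After it, LOC_Os01g37920 had 1010 normalised counts and LOC_Os01g37930 had 0.192.

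VPE1 was preceded by LOC_Os04g45450 with 3.47 and LOC_Os04g45460 with 16.4 normalised counts. It was followed by LOC_Os04g45480 with 1086 and LOC_Os04g45490 with 114. VPE3 was preceded by LOC_Os02g42990 with 24.4 and LOC_Os02g43000 with 6.27 normalised counts, and followed by LOC_Os02g43020 with 2481 and LOC_Os02g43030 with 60.1. For VPE1, VPE2 and VPE3, and also for GPA3, the locus with the next number had more reads than the gene itself.

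VPE4 differed from them in that LOC_Os05g51560, directly before it, had 463 normalised counts and LOC_Os05g51580, directly after it, had 0.0410. The outer loci, LOC_Os05g51550 and LOC_Os05g51590, had 79.1 and 201. GPA3, the gene with the fewest reads of the 6, was directly followed by LOC_Os03g61960 with 2704 normalised counts, the highest of the 24 loci. LOC_Os03g61970 after that had 550 and LOC_Os03g61930 had 268, both above GPA3, while LOC_Os03g61940 directly before it was listed at 0. The part of a flanking locus in any of the 6 values was not tested.

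**Figure D3:**
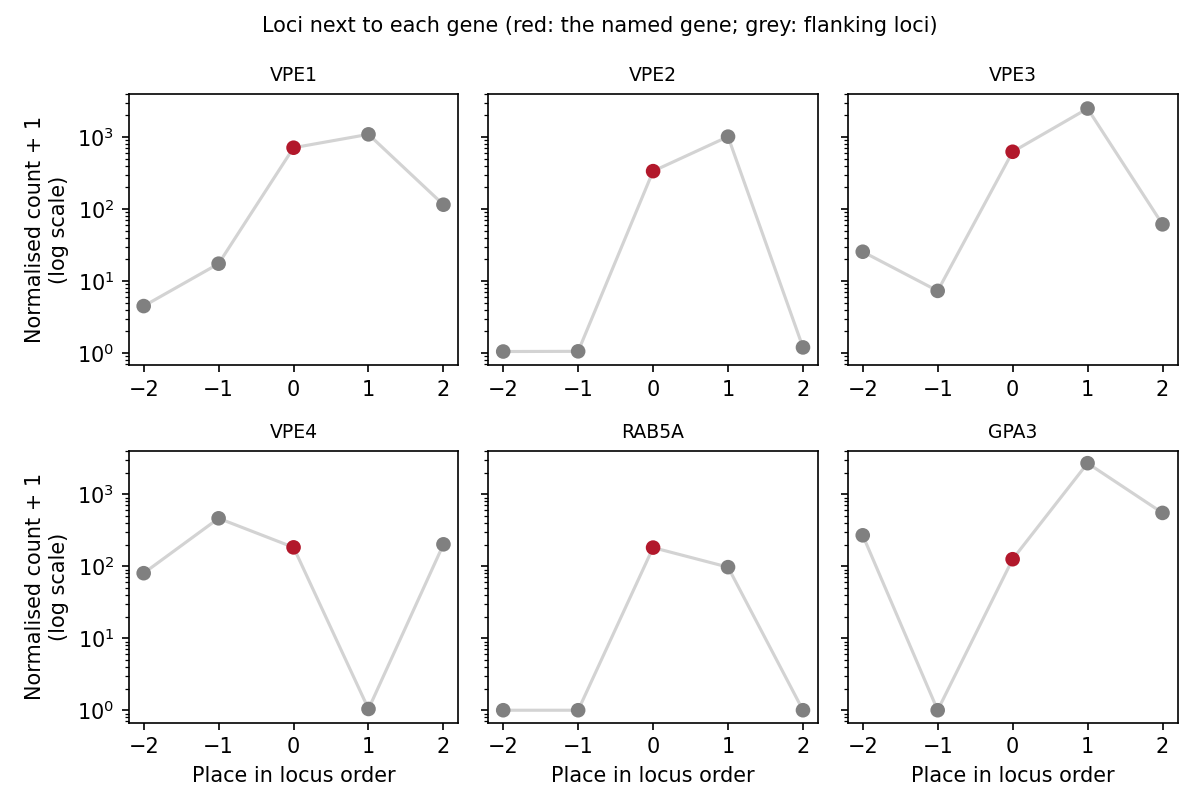
Each panel shows 1 of the 6 genes (red, place 0) with the 2 listed loci before and after it in locus order (grey), and the y axis is the pooled normalised count plus 1 on a log scale. RAB5A is the highest point of its panel. VPE1, VPE2, VPE3 and GPA3 stand below the locus directly after them, which for GPA3 is at 2704.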

How the data were processed

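The authors deposited 8 tables with a gene identifier and a baseMean, treated as a signal: per the file headers this is the name DESeq2 gives to the mean of counts divided by size factors. The submitters' processing notes name HISAT2 2.0.5, CASAVA 1.7 and DESeq2. Which program counted reads, and on which build and annotation, is not given in the sources used here. All 8 tables were identical, and 0 columns of single samples were set aside.

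The members and lists were chosen with earlier results of these data known. All genes of the lists as kept and the 2 loci on each side of a member were named. The glutelin loci first written down and then dropped are not named. Symbols were paired with loci from general knowledge. The RefSeq table of ASM3414082v1 holds no LOC_Os identifier among 39387 genes, but it holds the symbols of VPE1, RAB5A, GPA3, VPS9A and the 7 glutelins, all on the chromosome of their locus. VPE2, VPE3, VPE4, GPA5, NHX5, GOT1B and the SAR1 genes rest on general knowledge alone. After values were seen, the loci of GluD1 and GluB7 were changed, that of GluD1 to LOC_Os02g15090. Glutelins without a symbol there were then dropped, and GluB7 is not among the 7 kept. The highest value of the 10 loci first written down, 66984, is not among the 7 either, whose highest is 61910.

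The worth of 1 read per library was taken from the lowest values that are not sums of smaller ones within 1e-11, and tested on simulated data. The counting SE was bounded as the square root of the highest step times the value. Planned tests of genotype, which need values per sample, were not run. Values were computed in Python 3.11.15 (pandas 2.3.3, numpy 2.4.6) and drawn with matplotlib 3.10.9.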

Additional observations from a re-analysis of the deposited data

How the results depend on the processing

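No paired analysis was possible because each gene has a single pooled value and no replicates. Fits with another normalisation, tool or filter, and fits without a replicate, were not run for the same reason. Scaling by coding or gene length, protein alignments and promoter motifs were planned and not run either. With a mark of 500 in place of 1000 normalised counts, 2 of the 6 genes passed in place of 0, and at 2000 again 0 did. Of the 40831 genes above 0, 4144 passed 500, 2109 passed 1000 and 1020 passed 2000. Nothing is read from member counts this small. Among all listed genes the 6 stood higher than 80.7% (GPA3) to 94.6% (VPE1) of genes. Among genes of at least 10 normalised counts they stood higher than 51.1% (GPA3) to 86.3% (VPE1). The order of the 6 was kept under both, as it must be. With VPS9A alone, the only transport gene whose symbol the reference holds, the transport median was 385 in place of 353. With 1 locus on each side in place of 2, 5 of 12 flanking loci had more reads than the gene beside them, in place of 8 of 24. With the 10 glutelin loci written down first, an alternative chosen after seeing the data, their median was 25088 in place of 35496 and their lowest value 1083 in place of 8056. With tolerances of 1e-10 and 1e-12, also chosen after seeing the data, 30 read steps were found, as with 1e-11. A pooled mean limits every value: a difference in 1 group is averaged over all 30 libraries.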
